A study of Homo sapiens with 4 samples.

Results

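MALAT1, NEAT1, KCNQ1OT1, TUG1, OIP5-AS1, NORAD and MEG3 are 7 long non-coding RNA (lncRNA) genes that were followed here in the androgen-treated prostate cancer line LNCaP, with and without the KDM5 histone demethylase inhibitor CPI-455. They were taken by name from 60675 annotated genes, of which 14078 are typed as lncRNA, and they were chosen by their measured counts and fold changes in these same libraries. Their differences between the groups are therefore given as descriptions, with no test. TUG1 is typed as protein-coding in the annotation used for gene types, GENCODE release 44. It was added to the lncRNA genes for ranks, sequence searches and likeness. The calls, medians and shares of counts given for all lncRNA genes leave it out, and it falls among the protein-coding genes there. The word abundant did not hold for each of them, since MEG3 had 0 to 8 counts per library and KCNQ1OT1 ranked 252 and 275 among lncRNA genes in the vehicle libraries.

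LncRNAs are transcripts that are spliced and processed much like messenger RNA, or cut at their 3′ end by other enzymes, and that act as RNA. Some stay in the nucleus: MALAT1 lies in nuclear speckles, where splicing factors gather, NEAT1 is the scaffold of paraspeckles, KCNQ1OT1 coats an imprinted chromosome domain and MEG3 binds chromatin. Others are exported: NORAD holds Pumilio proteins in the cytoplasm and OIP5-AS1 (also called Cyrano) carries a site for the microRNA miR-7, while TUG1 is found in both compartments. MALAT1 is among the best known lncRNAs of cancer cells, prostate cancer included.

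RNA was sequenced from 4 cultures of LNCaP, a human androgen-responsive line from a lymph node metastasis, grown in hormone-depleted serum. All 4 received 1 nM R1881, a synthetic androgen, for 72 h. In 2 cultures the androgen was given with the DMSO vehicle and in 2 with 50 µM CPI-455. The study's methods give 0.05% DMSO and the sample labels give less than 0.01% for the inhibitor's solvent. No culture without R1881 was analysed here, so the comparison is of the inhibitor in the presence of androgen in 1 cell line.

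The libraries held 19623553 and 20690819 counted fragments in the vehicle group against 9522920 and 5401588 in the CPI-455 group, so that the inhibitor libraries were the shallower ones. The floor of 3 counts corresponded to 0.145 to 0.153 CPM (counts per 1000000 counted fragments) with vehicle and 0.315 to 0.555 with CPI-455. Markers of luminal prostate cells were detected, 9 of 9 in every library, with a summed level of 884 to 977 CPM with vehicle and 317 to 365 with CPI-455. Fibroblast markers summed to 4.54 to 5.55 and 7.22 to 9.56 CPM, basal markers to 0.204 to 0.29 and 1.11 to 1.16, endothelial markers to 1.12 to 1.64 and 0 to 0.42, and leukocyte markers to 0 to 0.0967 and 0 to 0.84. Mitochondrially encoded genes took 1.91% to 2.43% of the counts with vehicle and 0.967% to 1.24% with CPI-455. The part of depth, of these markers and of the mitochondrial share in the results was not tested. In such bulk RNA, fewer cells of a type and less RNA per cell cannot be told apart, and each level is relative to the rest of its library.

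The sequence features that set apart the members described most fully are shown first. The main form of MALAT1 and the long form of NEAT1 end without a poly(A) tail. A genomically encoded A-rich tract there folds back onto 2 U-rich stretches as a triple helix, and RNase P cuts just after it. The element was read from the GRCh38 sequence on the + strand at chr11:65506025-65506116 for MALAT1 (92 bases) and chr11:65445447-65445540 for NEAT1 (94 bases), with the U-rich stretches and the end of the A-rich tract in capitals:
MALAT1: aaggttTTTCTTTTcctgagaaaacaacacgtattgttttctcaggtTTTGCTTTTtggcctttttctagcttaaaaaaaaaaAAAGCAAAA
NEAT1: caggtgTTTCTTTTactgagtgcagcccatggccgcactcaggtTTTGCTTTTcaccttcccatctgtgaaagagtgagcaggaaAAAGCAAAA
The capitals spell TTTCTTTT, TTTGCTTTT and AAAGCAAAA in both genes. In that order, within 150 bases and on the sense strand alone, these letters were found in 2 of the 14079 genes searched (0.0142%), the exons of MALAT1 and NEAT1, from which they were read. The NEAT1 element ends at the annotated gene end, and the MALAT1 element ends 400 bases before it. The measured level of a transcript without a poly(A) tail depends on how RNA was selected for the libraries, which is not given in the sources used here, so the levels and shares of MALAT1 and NEAT1 hold for these libraries.

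NORAD carries repeated sites for the Pumilio proteins, PUM2 among them, spelled TGTANATA. Its exon holds 15 of them on the sense strand, from base 761 to base 4599, and 1 on the other strand. Each of 3 pairs has its sites only 9 bases apart from start to start. The pairs are shown in the direction of the transcript (− strand) with the sites in capitals, at chr20:36049493-36049529, chr20:36048296-36048332 and chr20:36047660-36047696 in GRCh38:
NORAD pair 1: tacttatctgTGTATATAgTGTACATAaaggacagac
NORAD pair 2: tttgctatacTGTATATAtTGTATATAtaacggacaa
NORAD pair 3: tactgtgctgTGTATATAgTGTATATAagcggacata
At least 1 such site on the sense strand was found in 9.84% of the 14079 genes searched. NORAD, with 2.81 sites per kb, ranked 2 by number and 2 by density among the 2864 genes with at least 2000 exon bases. The other members held 0 (MALAT1), 6 (NEAT1), 9 (KCNQ1OT1), 2 (TUG1), 1 (OIP5-AS1) and 1 (MEG3), or 0 to 0.294 sites per kb. A match of letters is a description and not a measured site.

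OIP5-AS1 holds a long site for miR-7, a microRNA that this lncRNA is known to lower. The site lies at chr15:41300574-41300599 on the + strand in GRCh38 and is shown with the match to the seed (bases 2 to 8 of the microRNA) in capitals, above the mature microRNA of 24 bases from RefSeq with its seed in capitals:
OIP5-AS1 site: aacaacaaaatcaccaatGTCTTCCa
hsa-miR-7-5p: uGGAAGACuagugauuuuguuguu
Of the microRNA's bases, 23 can pair with this site, which is 2 bases longer than the microRNA. The exons hold 3 matches to the seed in all. The microRNA itself was not measured.

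MALAT1 was by far the most altered member. This nuclear speckle lncRNA (ENSG00000251562, chr11:65497762-65506516, + strand, a single exon block of 8755 bases in the counting annotation) had 22390 and 18291 counts in the vehicle libraries and 471447 and 350469 in the CPI-455 libraries, although the latter libraries were the shallower ones. As shares of the library these were 0.114% (95% Wilson interval 0.113 to 0.116) and 0.0884% (0.0871 to 0.0897) with vehicle. With CPI-455 they were 4.95% (4.94 to 4.96) and 6.49% (6.47 to 6.51). The intervals cover counting error only. Both CPI-455 libraries lay far above both vehicle libraries, and the replicates of each group differed by more than counting error. MALAT1 ranked 49 and 79 among all genes of the vehicle libraries and was the gene with the most counts in each CPI-455 library.

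After TMM normalization, used for all means from here on, MALAT1 stood at 949 ± 157 CPM (mean ± SD, n = 2) with vehicle and 61255 ± 11651 with CPI-455, a log2 fold change of 6.01 (SE 0.19) or 64.6-fold. Log2 fold changes are CPI-455 over vehicle throughout, so positive values are higher with the inhibitor. With each library left out in turn the log2 fold change ran from 5.76 to 6.18. Of the exon bases of MALAT1, 23.3% are shared with other annotated genes, among them 1589 with an antisense gene, and fragments there were not counted. These overlapping genes were at 0 counts in all 4 libraries. Fragments over the shared bases could not be counted for them either, so this does not show that they are silent.

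NEAT1, the neighbouring paraspeckle lncRNA (ENSG00000245532, chr11:65422774-65445540, + strand, 1 exon block of 22767 bases), had 2087 and 1506 counts in the vehicle libraries against 1979 and 1487 in the CPI-455 libraries. Given library size alone these were 106 CPM (95% interval 102 to 111) and 72.8 CPM (69.2 to 76.6) for vehicle against 208 (199 to 217) and 275 (262 to 290) for CPI-455. The groups did not overlap, and the replicates of each group were further apart than their counting intervals. The normalized level was 83.9 ± 21.1 CPM with vehicle and 259 ± 51.1 with CPI-455 (n = 2 each), a log2 fold change of 1.62 (SE 0.19), 3.08-fold. Its range with 1 library left out was 1.37 to 1.88.

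MALAT1 and NEAT1 thus moved in the same direction by very different amounts. Within a library, where normalization cancels, NEAT1 had 0.0932 and 0.0823 counts per MALAT1 count in the vehicle libraries against 0.0042 and 0.00424 in the CPI-455 libraries, a log2 difference in this ratio of -4.38. The libraries of a group gave similar ratios, and the groups were far apart.

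KCNQ1OT1, the antisense transcript of the imprinted KCNQ1 domain (ENSG00000269821, chr11:2608328-2699994, − strand, 1 exon block of 91667 bases), was the scarcest member that passed the filter on low counts. It had 161 and 144 counts in the vehicle libraries against 662 and 303 in the CPI-455 libraries. In CPM by library size these were 8.2 (7.03 to 9.57) and 6.96 (5.91 to 8.19) for vehicle against 69.5 (64.4 to 75) and 56.1 (50.1 to 62.8) for CPI-455. The vehicle libraries were alike within counting error, and both CPI-455 libraries stood well above them. The mean level went from 7.11 ± 0.727 CPM to 67.3 ± 10.2 CPM (n = 2 each), a log2 fold change of 3.25 (SE 0.19), 9.5-fold, and 3.06 to 3.35 with 1 library left out. Once counts were adjusted for a smooth dependence on the length and GC content of exons it was 2.64.

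Strand was not used in counting, and KCNQ1OT1 lies inside KCNQ1 on the opposite strand. Unspliced KCNQ1 fragments in this span therefore cannot be told apart from KCNQ1OT1. KCNQ1 itself, a potassium channel gene counted on its exons, had 101 and 107 counts in the vehicle libraries against 29 and 6 in the CPI-455 libraries, with a log2 fold change of -1.02 (SE 0.47, FDR 0.0821 by edgeR), which did not pass the test.

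TUG1, found in nucleus and cytoplasm (ENSG00000253352, chr22:30970677-30979395, + strand, 4 exon blocks and 6793 exon bases), had 2602 and 2403 counts in the vehicle libraries against 2042 and 1030 in the CPI-455 libraries. In CPM by library size these were 133 (128 to 138) and 116 (112 to 121) for vehicle against 214 (205 to 224) and 191 (179 to 203) for CPI-455. Both CPI-455 libraries were above both vehicle libraries. The means were 117 ± 9.3 and 217 ± 18 CPM (n = 2 each), a log2 fold change of 0.90 (SE 0.12), 1.86-fold, below the 2-fold limit used by the study. It was past that limit with upper-quartile scaling (1.07) and after the length and GC adjustment (1.46).

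OIP5-AS1, the cytoplasmic lncRNA with the miR-7 site shown above (ENSG00000247556, chr15:41283990-41309737, + strand, 10 exon blocks and 12673 exon bases), had 4785 and 5534 counts in the vehicle libraries against 1228 and 753 in the CPI-455 libraries. In CPM by library size these were 244 (237 to 251) and 267 (261 to 275) for vehicle against 129 (122 to 136) and 139 (130 to 150) for CPI-455. Here the vehicle libraries were the higher ones, without overlap. The means were 240 ± 19 and 144 ± 7.93 CPM (n = 2 each), a log2 fold change of -0.74 (SE 0.12). After the length and GC adjustment it was -0.23. Of its exon bases, 470 are shared with OIP5 on the other strand, where fragments were not counted.

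NORAD, the Pumilio-binding lncRNA (ENSG00000260032, chr20:36045622-36050960, − strand, 1 exon block of 5339 bases with no base shared with another gene), had 7181 and 7560 counts in the vehicle libraries against 1597 and 1011 in the CPI-455 libraries. In CPM by library size these were 366 (358 to 374) and 365 (357 to 374) for vehicle against 168 (160 to 176) and 187 (176 to 199) for CPI-455. NORAD was the steadiest member with vehicle, and both CPI-455 libraries were lower. The means were 343 ± 4.37 and 190 ± 14.8 CPM (n = 2 each), a log2 fold change of -0.85 (SE 0.11). It was -1.04 with library totals only and -1.01 without a low-count filter, both past the 2-fold limit, and -0.36 after the length and GC adjustment.

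MEG3, an imprinted lncRNA that is silent in many tumour lines (ENSG00000214548, chr14:100779410-100861031, + strand, 8 exon blocks and 15769 exon bases), had 0 and 1 counts in the vehicle libraries against 8 and 0 in the CPI-455 libraries. It did not pass the filter, its groups overlapped, and no fold change is given.

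**Figure D1:**
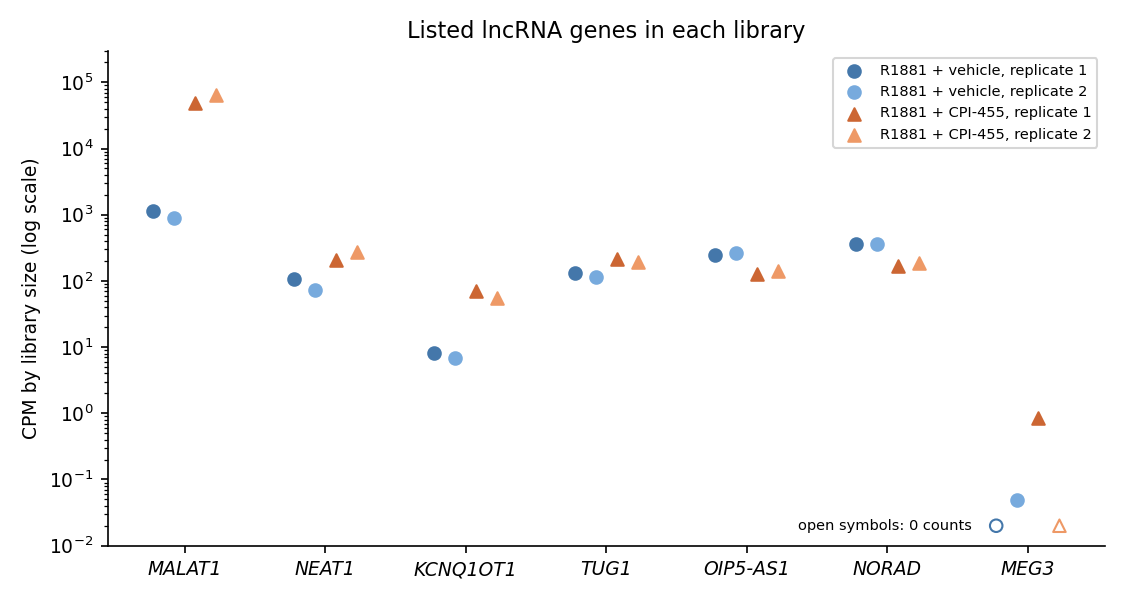
Level of the 7 genes in each of the 4 libraries as CPM by library size, on a log axis, with 1 symbol per library and open symbols at the bottom for libraries with 0 counts. MALAT1, NEAT1, KCNQ1OT1 and TUG1 are higher in both CPI-455 libraries, OIP5-AS1 and NORAD are lower in both, and MEG3 has 0 to 8 counts.

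Of the 7 genes, 6 passed the filter on low counts. With CPI-455, MALAT1, NEAT1 and KCNQ1OT1 were higher by 2-fold or more, and the other 3 did not reach 2-fold. Since the members were chosen with this contrast known, nothing is read from that count and no test is given for it. Other genes were called at the study's limits (FDR below 0.05, 2-fold or more). Among all 17600 genes tested, 21.0% were called higher and 21.3% lower with CPI-455. Among 13813 protein-coding genes, 15.6% were called higher and 24.4% lower. Among 2271 lncRNA genes, 38.5% (874 genes) were called higher and 10.3% (233 genes) lower. The p-values measure the spread between cultures of 1 line, with n = 2 per group.

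The lncRNA genes as a class therefore had more calls in the higher direction than in the lower one, their median log2 fold change being 0.84 (quartiles -0.40 and 2.17), beside -0.04 (-0.96 and 0.94) over all genes tested and -0.21 (-1.04 and 0.64) over protein-coding genes. The lncRNA genes in 1 exon block (622 genes) had a median of 0.73 and those in several blocks (1649 genes) a median of 0.86. MALAT1, at 6.01, ranked 32 by log2 fold change among 2272 lncRNA genes with TUG1 included, NEAT1 ranked 786, and NORAD ranked 407 from the lower end. A gene passed the low-count filter if its level sufficed in 1 group alone. Scarce lncRNA genes could thus enter through the group where they were high, and these calls, medians and ranks carry that limit. The number of lncRNA calls depended on the libraries. It was 1107 with all 4, 555 without vehicle replicate 1 and 510 without vehicle replicate 2.

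**Figure D2:**
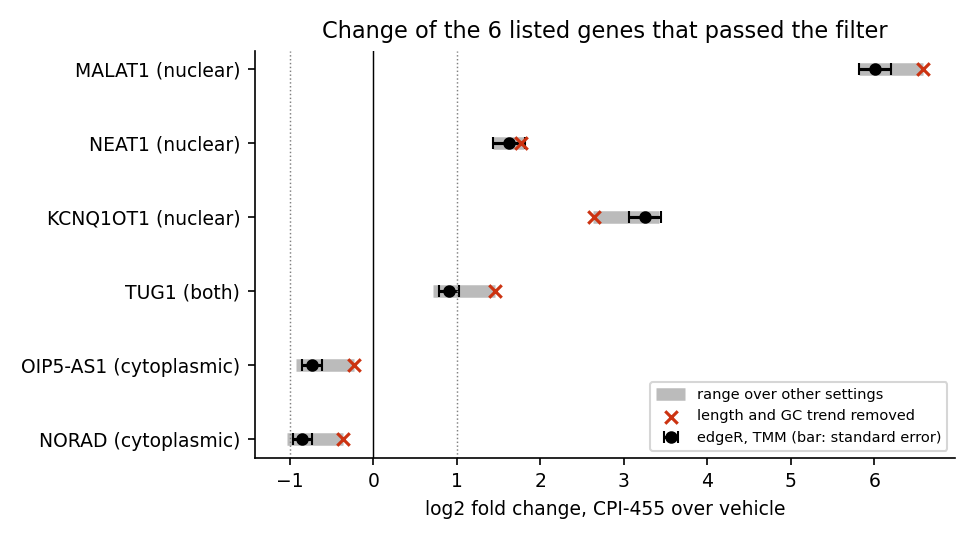
Log2 fold change (CPI-455 over vehicle) of the 6 genes that passed the filter, as black points with the standard error as the bar. Red crosses give the value after the length and GC adjustment, and dotted lines mark 2-fold. Grey bands give the range over the other settings run, without the fits that left out 1 library. The 4 positive and 2 negative values keep their sign throughout, and OIP5-AS1 and NORAD move from -0.74 and -0.85 to -0.23 and -0.36.

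Compared per kilobase of unshared exon, the order of the members differed between the groups. With vehicle MALAT1 was highest at 141 ± 23.4 CPM per kb (mean ± SD, n = 2), followed by NORAD at 64.3 ± 0.819. TUG1 at 21.9 ± 1.74 and OIP5-AS1 at 19.7 ± 1.56 came next and did not differ beyond their spread. NEAT1 stood at 3.76 ± 0.947 and KCNQ1OT1 at 0.0785 ± 0.00803, each clearly below the one before. Both are divided by the unshared length of the annotated exon block, with the forms of NEAT1 not separated. KCNQ1OT1 counts may also hold unspliced KCNQ1 fragments, so the order holds for these annotated lengths and counts only.

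With CPI-455 MALAT1 stood at 9125 ± 1736 CPM per kb and TUG1, now next, at 40.7 ± 3.37. NORAD at 35.6 ± 2.77 lay just below TUG1, with its higher library at 37.5 and the lower TUG1 library at 38.3. OIP5-AS1 at 11.8 ± 0.65 and NEAT1 at 11.6 ± 2.29 could not be separated, and KCNQ1OT1 reached 0.743 ± 0.112. MALAT1 thus exceeded each other member by a wider margin than with vehicle.

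Ratios to NORAD within a library do not depend on normalization. The MALAT1 to NORAD ratio of counts was 3.12 and 2.42 for vehicle against 295 and 347 for CPI-455. For NEAT1 it was 0.291 and 0.199 against 1.24 and 1.47. For OIP5-AS1 it was 0.666 and 0.732 against 0.769 and 0.745, a log2 difference of 0.11, so that these cytoplasmic lncRNAs stood in nearly the same proportion to each other, although the groups did not overlap. For TUG1 the ratio was 0.362 and 0.318 against 1.28 and 1.02. For KCNQ1OT1 it was 0.0224 and 0.019 against 0.415 and 0.3.

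Because of MALAT1, lncRNA genes together took a much larger part of the sequenced fragments. Their share of counts was 1.71% and 1.55% for vehicle against 7.32% and 8.79% for CPI-455. Without MALAT1 it was 1.6% and 1.46% against 2.37% and 2.3%. MALAT1 alone made up 6.67% and 5.7% of the lncRNA counts in the vehicle libraries against 67.6% and 73.8% in the CPI-455 libraries. The other 6 members, in contrast, summed to 0.0857% and 0.0829% of all counts in the vehicle libraries against 0.0789% and 0.0849% in the CPI-455 libraries, ranges that overlapped.

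**Figure D3:**
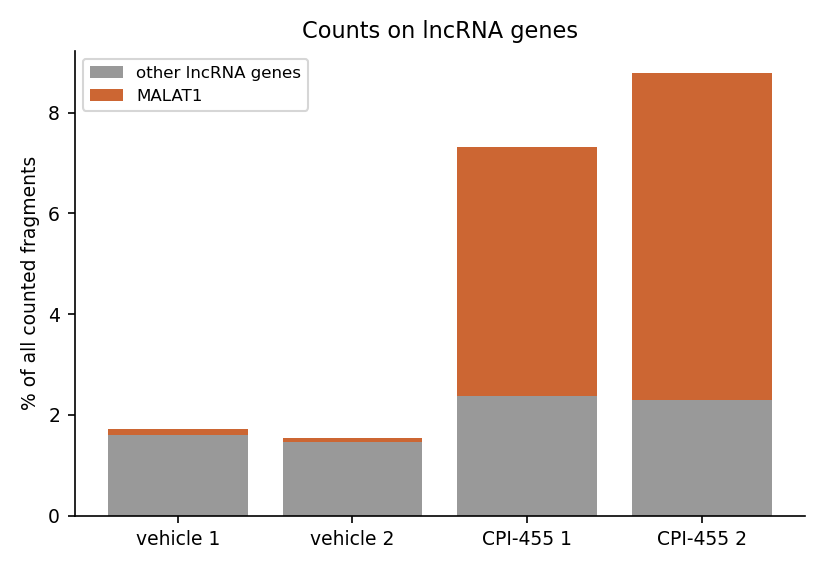
Share of each library's counts, in percent, taken by MALAT1 (orange) and by all other lncRNA genes (grey), as stacked bars from 0. MALAT1 takes 0.114% and 0.0884% of the vehicle libraries and 4.95% and 6.49% of the CPI-455 libraries.

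Among 55 lncRNA genes (TUG1 included) whose mean log2 CPM reached 5, 43 had a positive and 12 a negative log2 fold change. Of these 55, 29 were called higher and 3 lower. The shares were 38.5% and 10.3% over all lncRNA genes tested, and 21.0% and 21.3% over all genes tested. The mean is over all 4 libraries, so genes raised in 1 group can enter through it. MALAT1 had the largest positive value of these 55, and NORAD and OIP5-AS1 were 5 and 6 from the most negative. The abundant lncRNA genes whose centred log2 CPM over the 4 libraries came nearest to MALAT1 were MVP-DT (root mean square difference 1.17), LINC00632 (1.3), RUSC1-AS1 (1.3), MMP25-AS1 (1.34) and SLC9A3-AS1 (1.59), out of 54 compared. Their log2 fold changes were 3.75, 3.45, 3.43, 3.35 and 2.88, well short of 6.01. The nearest to KCNQ1OT1 was MMP25-AS1 (0.103, of 55) and to TUG1 PAXIP1-DT (0.0323). OIP5-AS1 and NORAD were each nearest to the other (0.0769). With 4 libraries in 2 groups, this likeness reflects mostly the size of the difference between the groups.

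Set against location, the 3 nuclear members that could be measured were higher with CPI-455, TUG1 of both compartments was also higher, and the 2 cytoplasmic members were lower. Lists of further lncRNAs of known location, chosen with earlier results of these data known, did not divide in this way. In the nuclear list, 10 of 12 genes were tested, 3 were called, each higher, and the list had a median log2 fold change of 0.72. In the cytoplasmic list, 10 of 11 genes were tested, 8 were called, each higher, and the median was 1.91. Over all lncRNA genes tested the median was 0.84, with 38.5% called higher and 10.3% lower, so the nuclear list lay close to its class and the cytoplasmic list above it. The median of all genes tested was -0.04. The length and GC adjustment gave 6 nuclear and 8 cytoplasmic calls, all in the higher direction, with medians of 1.06 and 1.82. Under this adjustment the members kept their direction, with the cytoplasmic ones closer to no change. They stood at 6.58 (MALAT1), 1.77 (NEAT1), 2.64 (KCNQ1OT1), 1.46 (TUG1), -0.23 (OIP5-AS1) and -0.36 (NORAD).

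Among the nuclear lncRNAs, FIRRE, which helps to organize chromosome contacts, rose by a log2 fold change of 2.37 (SE 0.20, FDR 1e-05, from the quasi-likelihood test of edgeR, adjusted by Benjamini-Hochberg, as for the genes named after it). LINC-PINT, which is induced by p53, rose by 2.28 (SE 0.41, FDR 0.00106), and CHASERR, which limits expression of the neighbouring CHD2 gene, rose by 1.83 (SE 0.14, FDR 5.15e-06). HOTAIR (0.97), PVT1 (0.77), JPX (0.66), CDKN2B-AS1 (0.34), HOTTIP (0.34), SNHG14 (-0.42) and FTX (-0.59) were not called. MIAT and RMST were too low to be tested.

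The cytoplasmic list holds 6 hosts of small nucleolar RNAs, whose spliced exons are exported, and 5 of these were called higher. The median log2 fold change of the hosts was 1.99. SNHG6 rose by 2.66 (SE 0.12, FDR 5.83e-07), SNHG1 by 2.45 (SE 0.11, FDR 6.49e-07), SNHG8 by 2.26 (SE 0.13, FDR 1.51e-06), SNHG5 by 1.72 and GAS5, a lncRNA of growth-arrested cells, by 1.10 (SE 0.10, FDR 1.64e-05). The 4 other tested genes of the list had a median of 1.60, with CYTOR at 2.34 (SE 0.31, FDR 0.000166), TINCR at 2.10 (SE 0.46, FDR 0.00315) and DANCR at 1.11 (SE 0.15, FDR 0.000165) called higher. ZFAS1 (0.47) and EPB41L4A-AS1 (0.55) were not called, and H19 was too low to be tested. The direction of OIP5-AS1 and NORAD was thus not that of the called cytoplasmic lncRNAs.

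**Figure D4:**
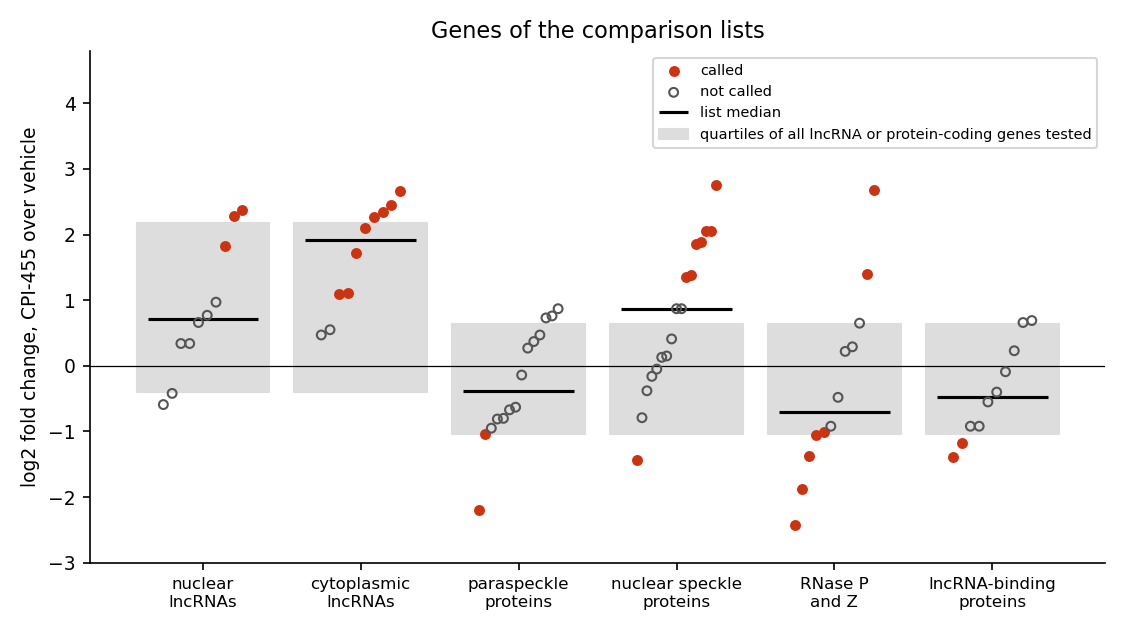
Log2 fold change (CPI-455 over vehicle) of each tested gene in the 6 lists of lncRNAs and protein partners, with filled points for called genes, black bars for list medians, and grey boxes from the lower to the upper quartile of all lncRNA genes (lncRNA lists) or all protein-coding genes (protein lists). The cytoplasmic lncRNA list has the highest median, 1.91, and the RNase P and RNase Z list the lowest, -0.70.

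The genes for proteins of the bodies in which MALAT1 and NEAT1 lie were read against all protein-coding genes, of which 15.6% were called higher and 24.4% lower, with a median of -0.21. Of 17 nuclear speckle genes, 7 were called higher and 1 lower, and the median log2 fold change was 0.87. PNN, a speckle protein tied to splicing, rose by 2.76 (SE 0.12, FDR 5.83e-07), and the splicing factor SRSF1, which binds MALAT1, rose by 2.06 (SE 0.11, FDR 8.89e-07). The RNA export helicase DDX39B rose by 2.06 (SE 0.15, FDR 4.39e-06), and SRSF2 (1.89), SRSF5 (1.86), SRSF11 (1.38) and SRRM1 (1.35) were also called. THRAP3 fell by 1.43 (SE 0.11, FDR 7.16e-06). The speckle core genes SON (0.13) and SRRM2 (0.41) were not called.

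Of 14 paraspeckle protein genes, 2 were called, both lower, a share no larger than the 24.4% of protein-coding genes, and the median was -0.39, while upper-quartile scaling gave 1 higher and 1 lower and the length and GC adjustment gave 2 higher and 1 lower. CPSF6, which with its partner selects NEAT1's short form by promoting an early poly(A) site, fell by 2.20 (SE 0.12, FDR 1.1e-06). SFPQ, needed for paraspeckle assembly, fell by 1.04 (SE 0.10, FDR 2.45e-05). Its partners NONO (0.37) and PSPC1 (-0.63), and HNRNPK (-0.95), EWSR1 (0.76) and TAF15 (0.87), were not called. The short and long forms of NEAT1 share 1 count in these data and were not separated.

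The enzyme that cuts the MALAT1 and NEAT1 3′ ends shown above is RNase P, which acts after the A-rich tract. Its genes were listed together with the gene of RNase Z. Of 12 such genes, 2 were called higher and 5 lower, with a median of -0.70. Over protein-coding genes, 15.6% were called higher and 24.4% lower, with a median of -0.21. The RNase P subunits RPP21 and POP5 rose by 2.68 (SE 0.28, FDR 3.27e-05) and 1.40 (SE 0.17, FDR 8.47e-05). POP1, the largest protein subunit, fell by 2.42 (SE 0.24, FDR 2.26e-05), RPP25 fell by 1.87 (SE 0.18, FDR 2.18e-05), and RPP14 (-1.38), RPP25L (-1.05) and RPP38 (-1.01) were also called lower. ELAC2, which encodes RNase Z, was at 0.29 and not called.

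Of 10 genes for proteins that bind these lncRNAs, 2 were called, both lower, near the 24.4% of protein-coding genes, and the median was -0.47, whereas the length and GC adjustment gave 1 call, which was higher. PUM2, a protein held by the NORAD sites shown above, fell by 1.17 (SE 0.12, FDR 3.24e-05). The Polycomb subunit SUZ12 fell by 1.39 (SE 0.12, FDR 1.33e-05), while EED (0.66) and EZH2 (-0.09) were not called. ELAVL1, which binds OIP5-AS1, and METTL16, which binds the MALAT1 triple helix, were both at -0.92 and not called.

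None of the tested genes near MALAT1 came close to its log2 fold change. NEAT1 ends 52.2 kb before MALAT1 starts, and 27 other annotated genes lie within 100 kb of them. Of these, 13 passed the filter, with a median log2 fold change of 0.13. The pseudogene FAUP4, which lies between MALAT1 and NEAT1, had 18 and 18 counts in the vehicle libraries against 43 and 27 in the CPI-455 libraries and rose by 2.59 (SE 0.49, FDR 0.00148). FRMD8, which encodes a membrane-linked scaffold protein, had 1056 and 1041 counts in the vehicle libraries against 144 and 89 in the CPI-455 libraries and fell by 1.54 (SE 0.16, FDR 3.63e-05). LTBP3 (0.74), SIPA1 (0.97) and MAP3K11 (-0.86) were not called.

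**Figure D5:**
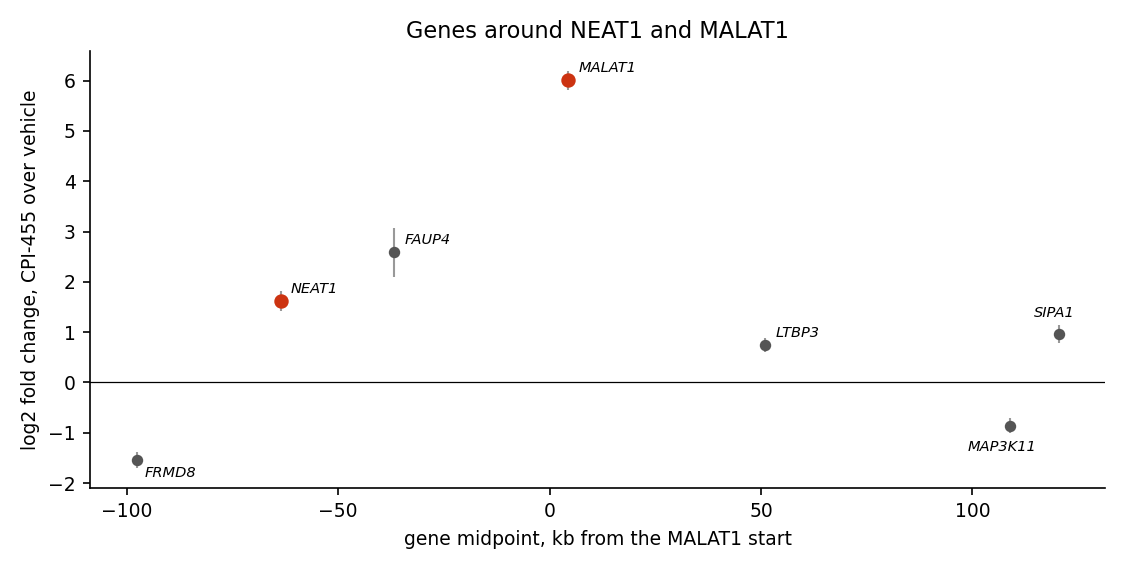
Log2 fold change (CPI-455 over vehicle, bars are standard errors) of NEAT1, MALAT1 and the 5 neighbours named in the text, by the distance of the gene's midpoint from the MALAT1 start in kb. MALAT1 at 6.01 stands above each of the others, FAUP4 at 2.59 and NEAT1 at 1.62 come next, and FRMD8 at -1.54 is lowest.

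Around all 7 loci, 103 genes lie within 100 kb, 28 passed the filter, and 4 were called higher and 2 lower, smaller shares than the 21.0% and 21.3% of all genes tested, with a median of 0.10 that turned to -0.09 with library totals only. Near TUG1, 4 genes were tested. Of these, the smooth muscle gene SMTN rose by 2.13 (SE 0.13, FDR 1.69e-06), and MORC2 (0.63) and OSBP2 (0.07) were not called. The pseudogene EIF4HP2, also called higher, had 16 and 7 counts in the vehicle libraries against 36 and 11 in the CPI-455 libraries. Near NORAD, 4 genes were tested with a median of -0.40, and SCAND1 fell by 1.03 (SE 0.18, FDR 0.000986). OIP5, which overlaps OIP5-AS1 on the other strand, was at 0.31 (SE 0.28, FDR 0.361) and was not called. The unnamed gene ENSG00000259396 near OIP5-AS1 had 1 and 1 counts in the vehicle libraries against 18 and 25 in the CPI-455 libraries. This gene and EIF4HP2 passed the low-count filter through the CPI-455 libraries, where they are high, so nothing is read from their calls. The 4 higher calls and the median of 0.10 around all 7 loci include both. None of the 40 genes near MEG3 passed the filter.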

How the data were processed

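RNA of 4 LNCaP cultures (2 per group, groups from the sample labels) had been sequenced. The authors trimmed reads with TrimGalore, used STAR for alignment to GRCh38, and obtained fragment numbers per gene (Ensembl release 83 exons) from featureCounts v1.5.0-p1. The deposited values are raw counts per gene. Per the file headers strand was ignored, and multi-mapping fragments or those over several genes were left out. RNA selection and library strandedness are not given in the sources used here.

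Symbols and types came from GENCODE release 44 (56558 of 60675 genes matched). All genes were fitted with edgeR 4.0.16 in R 4.3.3 (TMM, filterByExpr at a minimum of 10 counts, glmQLFit and glmQLFTest, no covariate, Benjamini-Hochberg adjustment). The fit was run first on simulated data. In these, far fewer genes changed than were called here, evenly in both directions and by a fixed fold size. The simulation therefore does not test the fit under a difference as broad as the one between these groups. A call needed an FDR below 0.05 and at least 2-fold, the study's thresholds. Shares have 95% Wilson intervals. Sequences were read from GRCh38 and RefSeq.

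The members and the gene lists were chosen with earlier results of these data known. The text names the members, list genes and neighbours within 100 kb, at least the called ones with the largest changes (up to 4 each way), and by likeness 5 lncRNA genes for MALAT1 and 1 for each other member. Replicate numbers 1 and 2 occur in both groups, and no source used here says that they pair cultures. Alternatives were RLE, upper-quartile and library-total scaling, TMM without mitochondrial genes and MALAT1, other filters, DESeq2 1.42.0, a replicate block, an adjustment for the length and GC content of exons (a smooth trend, mgcv 1.9.3) with and without the block, a stricter FDR of 0.01, another denominator for shares and leaving out each library. Some genes are not reported here.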

Additional observations from a re-analysis of the deposited data

How the results depend on the processing

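The direction of the 6 measured members stayed the same in 84 values over the alternatives run, and 24 of these moved by more than 1 SD. The count of members past 2-fold was 3, and 4 with upper-quartile scaling (TUG1 added), library totals only (NORAD), no filter (NORAD) and the trend on length and GC content removed (TUG1), with and without the replicate block. Of lncRNA genes, 1107 were called (79% higher), 580 with at least 10 counts in every library (90.5% higher), 69.3% higher with the trend removed, and 510 to 1441 with 1 library left out. The filter of 10 counts in every library asks for a higher CPM in the shallower CPI-455 libraries, so genes that fell are removed more readily. It left 55 lower calls, against 233 in the main fit, and 73.5% of calls were higher without a filter. Nuclear lncRNAs called went from 3 to 6 with the trend removed, with and without the replicate block. LncRNA-binding genes called went from 2 to 1 with upper-quartile scaling, to 4 with library totals only, to 4 without a filter and to 1 with the trend removed, with and without the block. The share of the 6 other members with CPI-455 was 0.0819% of all counts and 0.0879% without mitochondrial genes and MALAT1. The median of all genes shifted by 0.17 (upper quartile), -0.19 (library totals), -0.15 (no filter) and 0.11 (trend removed). The causes were not tested.

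The replicate block gave MALAT1 6.01, NEAT1 1.63, KCNQ1OT1 3.24, TUG1 0.90, OIP5-AS1 -0.74 and NORAD -0.86, and called 780 lncRNA genes higher and 210 lower. Same-numbered libraries deviated with a correlation of 0.04 over 17600 genes and 0.138 over 6593 genes whose mean log2 CPM reached 5. MEG3 had 0 to 8 counts per library, too few for a fold change.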
